A study of Rattus norvegicus with 110 samples.

Results

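The average transcript length of a gene differed between liver and kidney by up to 1.63 on the log2 scale in vehicle-treated male Sprague Dawley rats, and the 200 genes with the largest differences are described here. The members were chosen by the lengths themselves, in 27 animals that gave both organs. For each gene the log2 of the mean liver length over the mean kidney length was taken, and genes were ranked by its absolute value among the 8295 of 31998 identifiers with a mean of 5 or more CPM (the count scaled to the library total) in each organ. All length differences between the organs in the vehicle animals are therefore descriptions of the values that chose the members, and carry no test.

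The 27 animals were F2 males given 0.5 ml/kg olive oil by gavage 3 times a week for 6 weeks and sampled after 39 days. They came from 4 cohorts: group 11 (7 animals, F0-control and F1-control), group 14 (7 animals, F0-control and F1-treated), group 17 (6 animals, F0-treated and F1-control) and group 20 (7 animals, F0-treated and F1-treated). Treated forefathers had received 50% (v/v) CCl4, a liver toxicant, in olive oil, and were allowed to recover before mating. Another 56 livers came from F2 males of the same 4 cohorts given CCl4 in olive oil on the same schedule, at 8% (v/v) in groups 12, 15, 18 and 21 (low dose, 28 animals) or at 50% (v/v) in groups 13, 16, 19 and 22 (high dose, 28 animals). These 56 livers did not enter the choice of members, and no kidney of a dosed animal was analysed here.

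Many genes make transcripts of different length, by starting at another promoter, by skipping exons or by ending at another polyadenylation site, and such choices can differ between tissues. The length used here is an effective length in bases. It is the stretch of a transcript from which sequenced fragments could come, under a model of each library's fragment sizes and base composition, averaged over the transcripts of a gene with their abundances as weights. The value can therefore move because a gene uses other transcripts, and also because the same transcript is given another effective length in another library. Where a gene's length was written with no more than 3 decimals in every vehicle library with a count, as Salmon writes the length of a single transcript, no average had been formed. Such genes are called single-transcript genes below. A gene with several known transcripts of which 1 alone was quantified would look the same, so the class holds genes whose value was not a mean, and that both organs used the same transcript was not tested. All other genes have several transcripts in the mean.

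Among all 8295 genes the median difference was -0.06, and 8156 were longer in kidney. This majority depended on the scaling: with each library centred on its median length, 4847 of the 8295 genes were longer in liver. Of the 200 members 179 were longer in kidney and 21 in liver, and all 200 kept their side when centred. The absolute difference of the members had a median of 0.27. It exceeded 0.5 in 15 genes and 1 in 4 genes, all 4 longer in kidney. The limit itself separated nothing: the last member inside, ENSRNOG00000013884.8, differed by 0.22 toward liver (2543 against 2190 bases), and the first gene outside, ENSRNOG00000029500.5, by -0.21 (1310 against 1520 bases). Centring each library on its median length would have kept 169 of the 200 genes and put 52 genes longer in liver into the set instead of 21.

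Of the 200 members, 87 (43.5%) were single-transcript genes, against 67.9% of all genes compared, and all 87 were longer in kidney. Their median difference was -0.25. The 113 members with several transcripts split into 92 longer in kidney (median -0.28) and 21 longer in liver (median 0.33). Of the 15 differences over 0.5, 14 belonged to genes with several transcripts. The exception, ENSRNOG00000057347.1, is a single-transcript gene with a mean of 271 bases in liver and 388 bases in kidney. Single-transcript members were short, with a median of 967 bases in kidney against 2011 bases for all single-transcript genes compared.

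The difference had the same direction in all 27 animals for 64 members (32.0%), against 55.3% of all genes compared. By class, 59 of 113 members with several transcripts kept their direction in 27 of 27 animals, and 5 of 87 single-transcript members did. Another 80 of the 87 kept it in 25 animals. Nearly all exceptions came from the same 2 animals. In replicate 5 of group 14, 80 single-transcript members were longer in liver, and in replicate 4 of group 17, 81 were, with a median difference of 0.14 in both, whereas in the other 25 animals the median lay between -0.61 and -0.05. In no other animal did more than 10 of the 200 members go against their mean direction. Without these 2 animals, which were picked for going against the members, 169 members (84.5%) kept their direction in all of the other 25, among them 86 single-transcript members, against 65.4% of all genes compared, so that which share was higher rested on these 2 animals. Liver and kidney values did not overlap at all in 38 members (19%), against 16.6% of all genes, and 37 of these 38 had several transcripts.

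**Figure D1:**
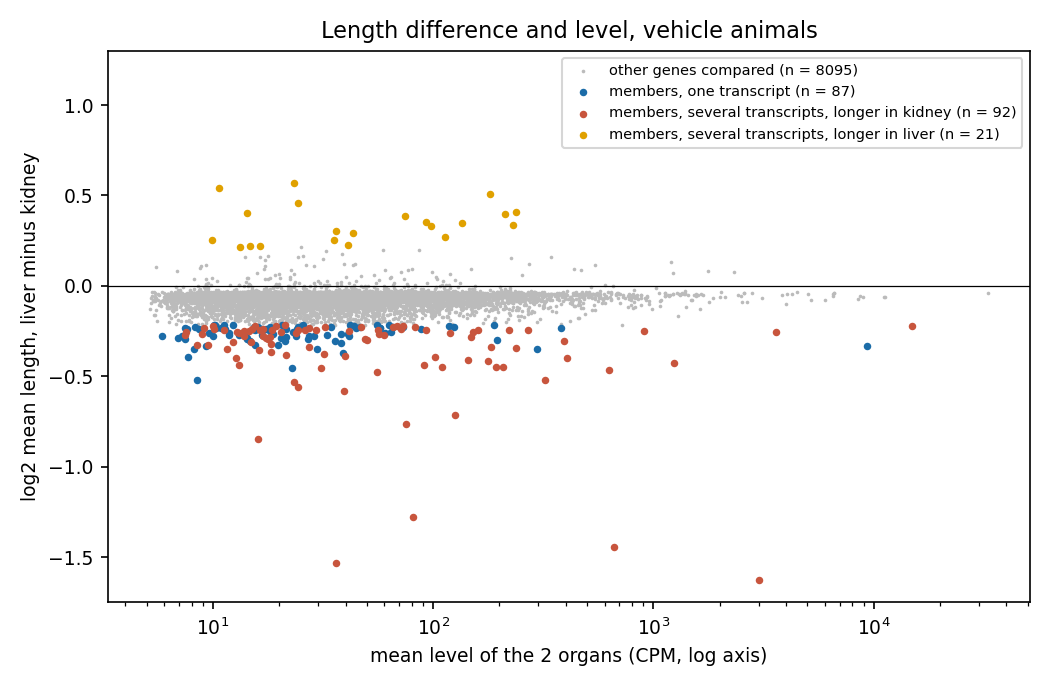
Each point is a gene, with the mean level of both organs in CPM on a log axis and the log2 mean length of 27 vehicle livers minus that of 27 kidneys on the vertical axis; grey points are the compared genes outside the set. Most genes lie just below 0, the 21 members longer in liver all have several transcripts, and members are spread over the whole range of levels.

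The largest difference of all belonged to ENSRNOG00000000053.7, with a mean of 904 bases in liver and 2788 bases in kidney. Its 27 livers lay between 881 and 935 bases (median 905) and its 27 kidneys between 2609 and 2870 bases (median 2801). The organs were far apart and each was narrow. Among the 200 members this gene also differed most in level, with 6035 ± 697 CPM in liver and 5.47 ± 1.34 CPM in kidney (SD, n = 27 each). ENSRNOG00000055531.1 was built alike, with livers between 1602 and 1644 bases (median 1619) and kidneys between 4219 and 4516 bases (median 4412), at 1301 ± 164 and 25.4 ± 2.23 CPM. The deposited tables give Ensembl identifiers, and 41 of the 200 members carry a symbol here. The symbols stem from the study's table of genes with an ancestral effect on level, so the named genes are no random draw from the set.

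Prkd3, which encodes protein kinase D3, a serine/threonine kinase activated through diacylglycerol, had the largest difference among the named members, -0.77. Its length was 1423 to 1916 bases in the livers (median 1705) and 2579 to 3117 bases in the kidneys (median 2900). Every liver was below every kidney, and the difference within an animal ranged from -1.08 to -0.56. Ssx2ip, a centrosomal protein, had 1512 to 2249 bases in liver (median 1965) and 2406 to 3098 in kidney (median 2804), again without overlap.

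Atp1b1, the beta subunit of the sodium-potassium pump, had 1073 to 1675 bases in liver (median 1403) and 1749 to 1970 bases in kidney (median 1871). Adamts10, a secreted metalloprotease of the extracellular matrix, had 2199 to 3209 bases in liver (median 2798) and 3363 to 3888 bases in kidney (median 3625). Organs were separate for both genes, but the livers spread more widely than the kidneys, with an SD of 148 against 61.0 bases for Atp1b1 and 275 against 134 bases for Adamts10.

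Tsc22d1, a leucine zipper gene induced by TGF-beta, showed how narrow a length could be. Its livers lay between 1411 and 1462 bases (median 1436) and its kidneys between 1587 and 1840 bases (median 1692). Hnf4g, a nuclear receptor related to Hnf4a, had 1850 to 2252 bases in liver (median 2051) and 2359 to 2490 bases in kidney (median 2428). These 6 genes were the named members whose organs did not overlap.

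The remaining members among the 12 named genes furthest toward kidney overlapped between the organs. Ctdsp1, a phosphatase of the RNA polymerase II tail, had 978 to 2061 bases in liver (median 1673) and 1914 to 2203 bases in kidney (median 2136). Stx2, a syntaxin of membrane fusion, differed by -0.34 and had the same direction in 26 of 27 animals. Nfyb, a subunit of the CCAAT-binding factor NF-Y, differed by -0.31, and LOC108348190 by -0.45, both in 27 of 27 animals. Crebzf, Sys1 and Zfp219, also among the 12, are single-transcript genes.

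**Figure D2:**
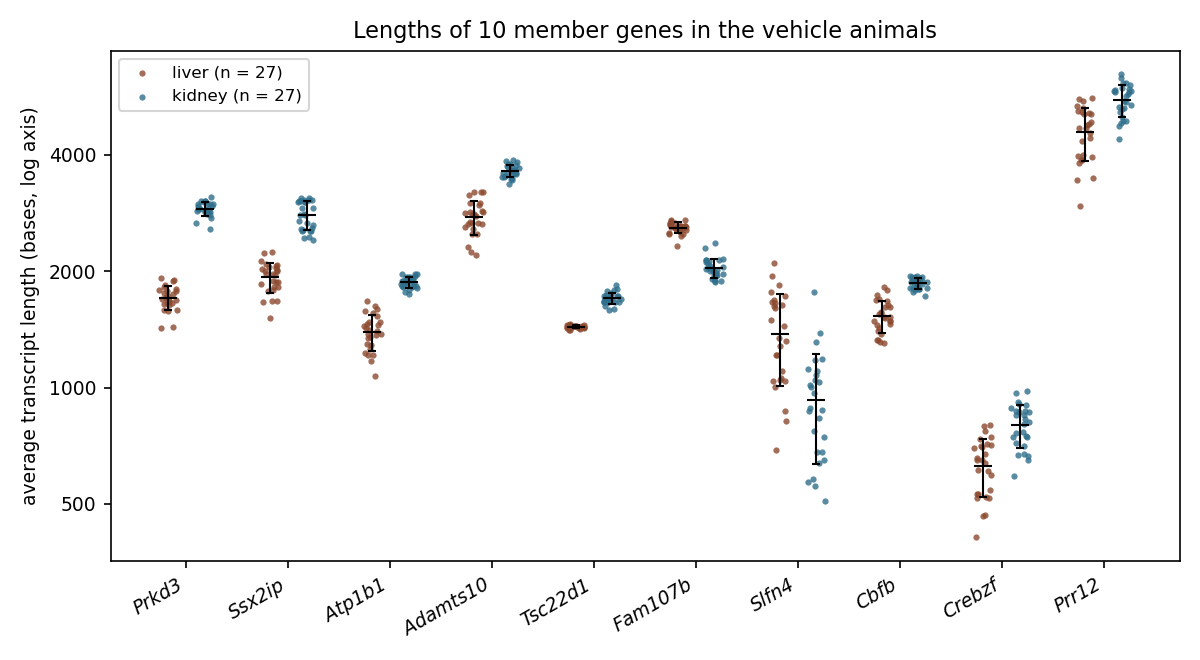
Points are the 27 vehicle livers and the 27 kidneys of the same animals, and bars are the mean and SD, of average transcript length in bases on a log axis for 10 member genes. For Prkd3, Ssx2ip, Atp1b1, Adamts10 and Tsc22d1 every kidney lies above every liver; Slfn4 and the single-transcript genes Cbfb, Crebzf and Prr12 overlap.

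Toward liver, only 2 of the 21 members carry a symbol. Fam107b was longer in liver in 27 of 27 animals, with 2330 to 2714 bases in liver (median 2601) and 1875 to 2362 bases in kidney (median 2024). The highest kidney value lay just above the lowest liver value. Slfn4, a Schlafen gene of myeloid cells, had the largest difference toward liver in the set, 0.57, and one of the least regular: its livers ran from 688 to 2100 bases (median 1341), its kidneys from 508 to 1770 bases (median 886), and 24 of 27 animals shared the direction. By contrast ENSRNOG00000046357.2, with a difference of 0.51, had livers of 1719 to 2216 bases (median 1911) and kidneys of 1325 to 1396 bases (median 1338) with no overlap. Of the 21 genes, 11 were longer in liver in all 27 animals and 4 did not overlap, while in ENSRNOG00000050669.2 only 15 animals shared the direction of the mean.

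The single-transcript members moved together from library to library. Crebzf, a basic leucine zipper factor, had 409 to 798 bases in liver (median 648) and 589 to 982 bases in kidney (median 817). Prr12 had 2946 to 5605 bases in liver (median 4708) and 4407 to 6482 bases in kidney (median 5694). Both genes were lowest in the same 3 livers. Across the 56 dosed livers, which had no part in the choice, the median correlation between the log2 lengths of 2 single-transcript members was 0.99, and it was also 0.99 across the 27 kidneys. These points share libraries, and the correlation is a description. In 80 of the 87 genes the correlation with the median of the class over the dosed livers exceeded 0.9, and 26 of the 92 genes with several transcripts that were longer in kidney exceeded it too. None of the 21 genes longer in liver did (highest 0.50). Among named single-transcript members the exceptions were Cbfb, the partner subunit of the RUNX factors, at -0.57, and Chac2, a gene of glutathione breakdown, at -0.66. Each single-transcript member is itself part of the class median. These correlations were not computed for the other single-transcript genes compared, so moving together is not shown to be particular to the members.

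The values of this class also spread more from library to library than those of the others. With each gene set to its mean in the 27 kidneys, the median of the 87 genes ran from -0.75 to 0.00 (median -0.22) in the 27 vehicle livers and from -0.26 to 0.19 (median 0.02) in the kidneys, so the organs overlapped. For the 92 genes with several transcripts longer in kidney the ranges were -0.48 to -0.20 and -0.04 to 0.04, and for the 21 genes longer in liver 0.26 to 0.41 and -0.05 to 0.06. Neither of these overlapped. Within the vehicle livers the single-transcript median was lowest in group 11, at -0.43, against -0.19 in group 14, -0.20 in group 17 and -0.13 in group 20. Leaving out group 11 kept 157 of the 200 members, while leaving out any other vehicle group kept 183 to 193. Over all genes compared, the median length of a library was 1939 to 2032 bases in the vehicle livers and 2076 to 2131 bases in the kidneys. Total counts were 32011243 to 49212897 per vehicle liver, 31638559 to 51343589 per dosed liver and 21961746 to 35055218 per kidney, and no member had a library with fewer than 10 counts in the vehicle animals. Liver and kidney libraries were amplified with different numbers of PCR cycles, so the tissue and the making of its libraries cannot be told apart.

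**Figure D3:**
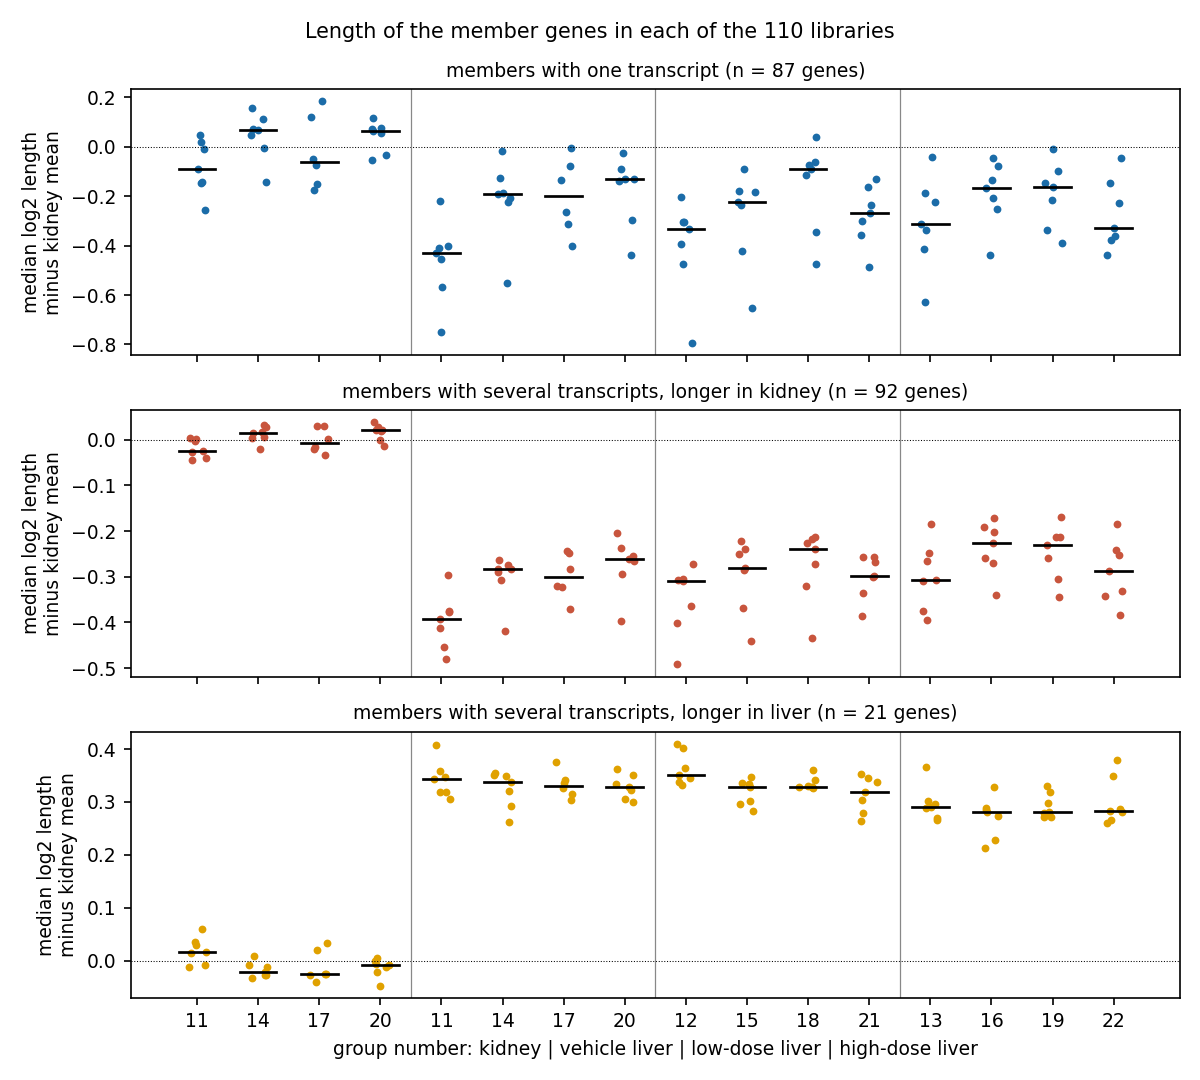
Each point is 1 of the 110 libraries, by group, and shows the median over a class of members of log2 length minus the mean over the kidneys; black lines are group medians and the vertical scale differs between panels. The 87 single-transcript genes vary widely within every group and overlap between organs, whereas both classes with several transcripts separate all 83 livers from all 27 kidneys.

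The size of the difference had little relation to the level of the gene. Across the 8295 genes, Spearman's rho between the absolute length difference and the mean level of both organs was -0.06, and across the 200 members it was 0.17; genes are not independent replicates. Of 4 equally filled bins of level the lowest held 67 members and the others, in rising order, 45, 37 and 51. Nor did direction follow the level: rho between the signed length difference and the log2 ratio of liver over kidney CPM was 0.04 over all genes and 0.00 over the members. Over all genes, single-transcript ones included, the absolute difference fell with length (rho -0.33). Of the single-transcript genes, 13 of 295 under 500 bases were members (4.41%) and 33 of 625 of 500 to 1000 bases (5.28%). At 1000 to 2000 bases 27 of 1875 were (1.44%), at 2000 to 4000 bases 9 of 1952 (0.461%) and over 4000 bases 5 of 888 (0.563%).

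Within a gene, length and level moved together across libraries in the single-transcript class. After removal of group means, the correlation of log2 length with log2 (CPM + 1) over the 56 dosed livers had a median of 0.64 over the 87 genes and was above 0 in 86 of them. Over all 5635 single-transcript genes compared the median was 0.27. Over the 27 kidneys the medians were 0.57 and 0.02. For the 92 genes with several transcripts that were longer in kidney the medians were 0.16 over the dosed livers and 0.31 over the kidneys, and for the 21 longer in liver 0.23 and -0.10.

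Level was then compared between the organs with edgeR's quasi-likelihood test on the counts as deposited. Of the 200 members, 67 (33.5%) differed at an adjusted p under 0.1 and a log2 fold change over 1, 37 higher in liver and 30 higher in kidney. Among the 8295 genes compared for length, 26.9% were called, 17.8% higher in liver and 9.05% higher in kidney, and over all 19292 genes tested 45.9% were called. The balance of directions depended on the scaling. TMM, which sets the bulk of genes level between libraries, moved the fold change of the genes compared by a median of 0.96 toward liver relative to library totals, on which CPM rests. With library totals 118 members were called, 18 higher in liver and 100 higher in kidney, against 6.24% and 36.4% of the genes compared. Fold changes below are on the TMM scale and therefore differ from the ratio of the CPM values beside them. In bulk tissue, a different share of cells of a type and a different RNA content per cell cannot be told apart.

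Prkd3 was higher in liver by 3.23 ± 0.07 (log2 ± SE, edgeR adjusted p = 1.17e-40), at 125 ± 18.9 CPM against 25.9 ± 4.22 CPM in kidney (SD, n = 27 each). Zfpm1, a cofactor of GATA factors with a single transcript, was higher in liver by 3.06 ± 0.08. Atp1b1 was higher in kidney, with a log2 fold change of -5.40 ± 0.10 (edgeR adjusted p = 7.37e-45), at 29.97 ± 10.1 CPM in liver and 2438 ± 213 CPM in kidney. LOC108348190 was also higher in kidney, with -5.07 ± 0.07. Named members with a smaller length in liver were thus found on either side.

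Counts grow with transcript length, so the same fit was repeated with the lengths as offsets. The offsets are the lengths that chose the members, so the direction of the shift follows from that choice and is a description. The members' log2 fold change moved by a median of 0.18. The number of calls stayed at 67, of which 58 were calls in both fits, and the split became 42 higher in liver and 25 higher in kidney (17.8% and 8.97% of the genes compared). The sign of the fold change turned in 16 members. The value of ENSRNOG00000045838.2 went from -0.42 ± 0.06 to 1.08; its lengths were 407 to 900 bases in liver (median 570) and 1517 to 1808 bases in kidney (median 1669). Prkd3 moved from 3.23 to 3.95. Slfn4 moved the other way, from 1.14 ± 0.13, past the fold threshold, to 0.44, short of it. Fam107b went from -0.82 ± 0.06, short of the threshold, to -1.24 (edgeR adjusted p = 7.01e-25), past it.

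**Figure D4:**
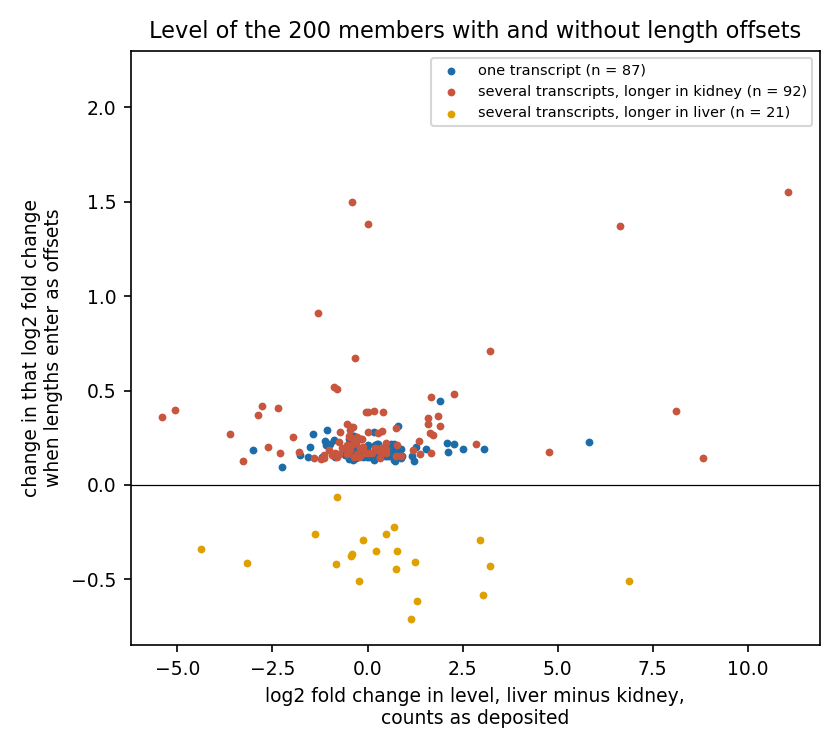
For each of the 200 members, the log2 fold change in level between liver and kidney from counts as deposited (horizontal axis) and the change in that value when average transcript lengths enter as offsets (vertical axis, log2). Genes longer in kidney move up and the 21 genes longer in liver move down, as the choice of members by length fixes.

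The mean length of the dosed livers lay on the same side of kidney as that of the vehicle livers in all 200 members (low dose) and in 199 (high dose), as it did in 99.6% and 99.0% of all genes compared. High-dose livers were compared with low-dose livers, samples that did not choose the members, by limma on log2 length with 12 liver group means. The vehicle liver groups are among these 12 and enter the spread, so the p-values are not fully independent of the choice. At an adjusted p under 0.1 and a difference over 0.25, 5 members were called, 3 longer and 2 shorter at the high dose, against 0.0844% of all genes compared (0.0482% longer, 0.0362% shorter). With no minimum difference 30 members (19 longer, 11 shorter) were called, against 10.9% of all genes compared (9.67% longer, 1.23% shorter). All 30 had several transcripts.

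The largest of these changes was in ENSRNOG00000054775.1, which was shorter at the high dose by -0.71 ± 0.06 (log2 ± SE, limma adjusted p = 1.76e-16). Its livers had 1079 to 2160 bases with vehicle (median 1895), 964 to 1766 bases at the low dose (median 1486) and 673 to 1629 bases at the high dose (median 889), whereas its kidneys had 2947 to 3163 bases (median 3043). Pooled over the cohorts, the length thus stepped down with dose, away from the kidney value. High-dose livers had a lower mean than low-dose livers in each of the 4 cohorts (high minus low dose -0.77, -0.62, -0.75 and -0.68). Their ranges overlapped in 2 of the cohorts. Its level was 72.9, 90.8 and 186 CPM in vehicle, low-dose and high-dose livers.

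ENSRNOG00000020457.8 went the other way, by 0.37 ± 0.03 (limma adjusted p = 5.67e-19). Its livers had 3612 to 4465 bases with vehicle (median 3921), 3817 to 4756 at the low dose (median 4237) and 4404 to 6606 at the high dose (median 5431). The kidneys had 4495 to 6141 bases (median 5583), so that the high-dose livers covered the kidney range. ENSRNOG00000003063.8 was longer at the high dose by 0.44 ± 0.10 (limma adjusted p = 0.00480), with a median of 3001 bases against 2201 at the low dose and 4325 in kidney. ENSRNOG00000014806.7, one of the genes longer in liver, was shorter at the high dose by -0.33 ± 0.06 (limma adjusted p = 2.63e-05), with a median of 1405 bases against 1754 at the low dose and 1326 in kidney. The fifth gene, longer by 0.26 ± 0.07, had an adjusted p of 0.0164 in limma.

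**Figure D5:**
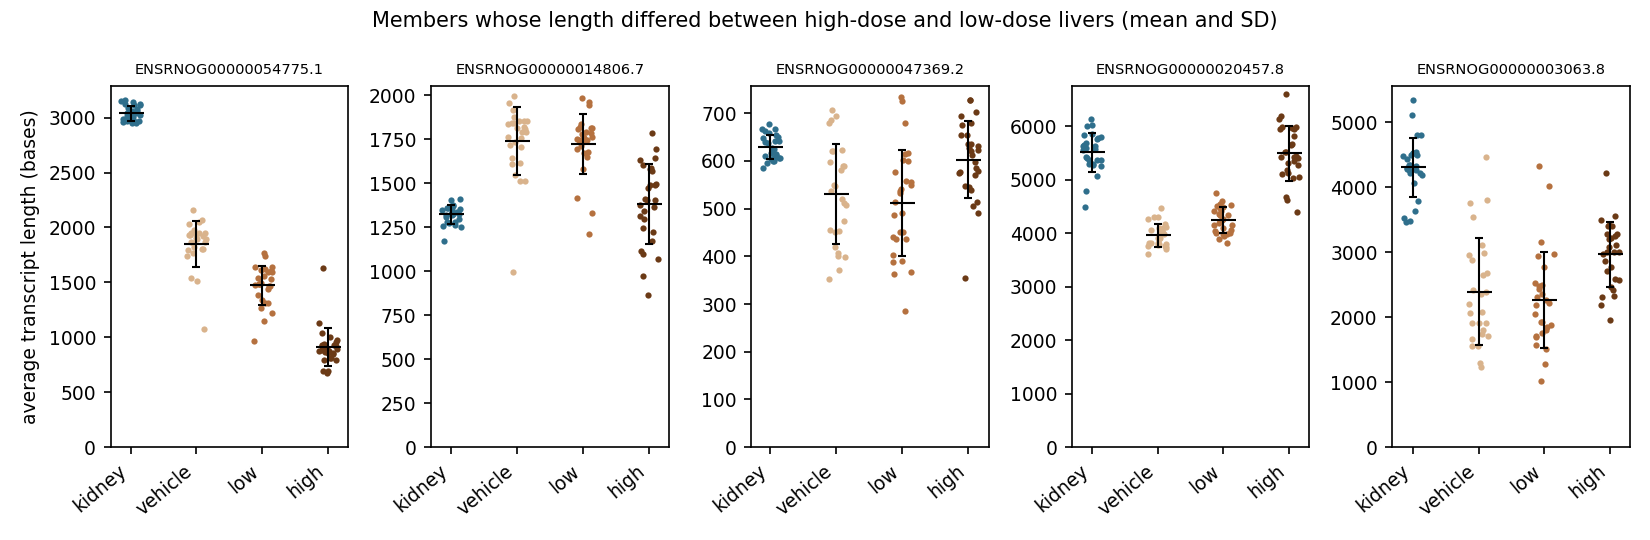
Average transcript length in bases, from 0, of the 5 members whose length differed between high-dose and low-dose livers, in 27 kidneys, 27 vehicle livers, 28 low-dose livers and 28 high-dose livers; bars are the mean and SD. The leftmost gene steps down with dose away from kidney, and ENSRNOG00000020457.8 reaches the kidney range at the high dose.

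Without a minimum difference 6 named members were called, each with a change under 0.25. Prkd3 was longer at the high dose than at the low dose by 0.19 ± 0.03 (limma adjusted p = 7.87e-06), with means of 1746 bases at the low dose and 1996 bases at the high dose. Adamts10 was longer by 0.16 ± 0.03, Ctdsp1 by 0.15 ± 0.05, Rgl2, an exchange factor for Ral GTPases, by 0.15 ± 0.05, and Tsc22d1 by 0.05 ± 0.01. Fam107b was shorter by -0.05 ± 0.01. High-dose against vehicle livers, a comparison that uses the libraries behind the choice of members, gave 12 calls at a difference over 0.25. Of these 8 were longer and 4 shorter, against 0.217% of all genes (0.133% longer, 0.0844% shorter). Low-dose against vehicle livers gave 1 (0.0121%). No member differed between the cohorts in its high minus low dose difference by limma's interaction terms, each cohort against cohort A, while 2, 3 and 4 members had an unadjusted p under 0.05, against 0.229%, 0.458% and 0.663% of all genes compared.

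In level, 6 members differed between high-dose and low-dose livers at a log2 fold change over 1 (1 higher, 5 lower), against 3.22% of the genes compared (2.13% lower) and 15.9% of all genes tested (4.99% lower; 5.01% with length offsets). None of the 5 genes called for length was among them, but 4 of the 5 had smaller differences in level at an edgeR adjusted p under 0.1. ENSRNOG00000020457.8 was higher at the high dose by 0.76 ± 0.10 and ENSRNOG00000054775.1 by 0.58 ± 0.05, while ENSRNOG00000014806.7 had -0.83 ± 0.09. The largest of the 6 differences was that of ENSRNOG00000040195.5, with -2.40 ± 0.19 (edgeR adjusted p = 4.45e-18).

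The ancestral treatments were fitted over all 83 livers, which include the 27 vehicle livers whose lengths chose the members, so that the counts of this fit are a description of the members. With F0 and F1 treatment and dose in the model, 134 members (67.0%) had an F0 effect on length in liver at a limma adjusted p under 0.1, 121 longer and 13 shorter in offspring of treated grandfathers, against 40.2% of all genes compared (38.6% longer, 1.57% shorter). With each library centred on its median length 122 members were longer and 25 shorter, and the direction over all genes turned, with 26.0% longer and 44.4% shorter. By class, 81 of 87 single-transcript members were called, and 53 of 113 with several transcripts. Calls were not counted by class over all genes compared. The effects were small, with a median of 0.10 in the single-transcript members. Prr12 had 0.12 at an adjusted p of 0.0494. Prkd3 had -0.09 and Ssx2ip -0.10, at the same adjusted p. As these genes carry nearly the same values from library to library, the 81 calls are not 81 separate results. In the 56 dosed livers alone, which did not choose the members, the same limma model called 1 member, and 19 of 200 had an unadjusted p under 0.05, against 3.10% of all genes compared. The median effect of the single-transcript members was 0.07 there, against 0.10 over all 83 livers, and why the calls were lost was not tested. In the 27 vehicle livers alone it called none, with 126 at an unadjusted p under 0.05, against 30.2%, and a median effect of 0.15.

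Among the vehicle livers the mean of the single-transcript median, relative to kidney, was -0.46 ± 0.16 in group 11 (SD, n = 7), -0.21 ± 0.16 in group 14 (n = 7), -0.20 ± 0.15 in group 17 (n = 6) and -0.18 ± 0.14 in group 20 (n = 7). Group 11, without a treated forefather, stood lowest, and the other F0-control group, 14, lay close to both F0-treated groups. The kidneys of group 11 were also lowest, at -0.08 ± 0.11. Kidneys of group 14 had 0.04 ± 0.10, of group 17 -0.02 ± 0.15 and of group 20 0.04 ± 0.06 (SD, the same animals). Among the low-dose livers the means were -0.40 in group 12, -0.28 in group 15, -0.16 in group 18 and -0.28 in group 21 (n = 7 each). Among the high-dose livers the means were -0.31 in group 13, -0.19 in group 16, -0.19 in group 19 and -0.28 in group 22 (n = 7 each). Pooled over F1, the F0-control and F0-treated means were -0.34 ± 0.20 (n = 14) and -0.19 ± 0.14 (n = 13) in vehicle livers, -0.34 ± 0.19 and -0.22 ± 0.16 in low-dose livers, and -0.25 ± 0.17 and -0.23 ± 0.14 in high-dose livers (SD, n = 14 each at both doses). F1 treatment gave no call by limma in liver or in kidney, with 9 and 118 members at an unadjusted p under 0.05, against 3.82% and 14.97% of all genes compared. In the 27 vehicle livers alone F1 treatment also gave no call by limma, with 119 members at an unadjusted p under 0.05, against 20.2%, and a median effect in the single-transcript members of 0.14, beside 0.15 for F0 treatment in the same livers. F0 treatment gave none among the members in kidney, with 8 at an unadjusted p under 0.05, against 11.7% of all genes. The 27 kidneys also took part in the choice of members, so their counts are a description.

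An F0 effect on level over the same 83 livers was called by edgeR in 36 members (32 higher, 4 lower; 18%), against 12.2% of the genes compared (6.12% higher) and 8.93% of all genes tested (5.14% higher, 3.79% lower). With length offsets it was called in 37 (31 higher, 6 lower), against 11.2% of the genes compared (5.59% higher, 5.63% lower) and 8.17% of all genes tested (4.64% higher, 3.54% lower), and 31 members were called in both fits. The median log2 effect of the single-transcript members was 0.15 on the counts and 0.07 with length offsets, against 0.05 and 0.04 for the members with several transcripts. Tnrc18 went from 0.51 to 0.43 and Crebzf from 0.24 to 0.13. Of the 36 genes, 31 are named, and the symbols were themselves drawn from genes with an ancestral effect on these samples, so the names are not independent evidence.

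Of the listed regulators of transcript choice that could be matched, none was a member, and most members carry no symbol to match. Of 31 splicing regulators 7 carry an identifier here, and their length differences ranked from 981 to 5044 of 8295. In level, Srsf4, a serine/arginine-rich splicing factor, was higher in liver by 1.42 ± 0.07 (edgeR adjusted p = 4.25e-26), Rbm47, an epithelial RNA-binding protein, was higher in kidney with -1.27 ± 0.07 (adjusted p = 3.43e-23), and the other 5 stayed under a log2 fold change of 1. Of 22 factors of 3' end processing 5 carry an identifier, and none was called; Cpsf3, the endonuclease, had -0.56 ± 0.03 and Nudt21, a subunit of cleavage factor I, 0.50 ± 0.04, although its CPM was lower in liver (14.7 against 20.2). Of 29 genes with isoforms known to differ between tissues 5 carry an identifier, 3 were compared and none was a member. As fewer than 80% of each list could be matched, the lists say little about these classes. The organ labels were borne out by the markers that could be matched: Tat, a hepatocyte enzyme, had 732 CPM in liver and 0.318 CPM in kidney, and Lrp2, the endocytic receptor of the kidney tubule, 14.3 and 4035 CPM.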

How the data were processed

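Rat liver and kidney RNA was sequenced as stranded, poly(A)-selected libraries. The authors quantified transcripts with Salmon 0.14.0 against Ensembl rat transcripts with its fragment base-composition correction, and summarised them per gene in R 3.5.0 with tximport; bcl2fastq and DESeq2 are also named in the submitters' processing notes. A pair of tables was deposited for each organ: estimated read counts per gene, rounded to whole counts by the authors, and the average transcript length per gene in bases, which is neither normalized nor on a log scale. For a gene without reads in a library, tximport fills the length from the other libraries.

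The members, gene lists and tests were chosen with earlier results of these data known. Lengths were tested as log2 values with limma 3.58.1 (trend), and counts with edgeR 4.0.16 (TMM, quasi-likelihood; genes with a summed count over 10 in a group), both in R 4.3.3 with Benjamini-Hochberg adjustment over all genes fitted. Standard errors of edgeR values were derived from the test statistic. CPM is the count scaled to the library total. DESeq2 1.42.0 served as an alternative. Scripts were tested on simulated data. Length offsets followed the tximport recipe for edgeR. The 83 livers and 27 kidneys are separate animals within an organ, but which animals shared a litter is not in the labels, so p-values may be too small. The paper's protocol placed littermates in different dose groups where possible, so this concerns the ancestral fits most. Vehicle livers and kidneys were paired by animal: residual levels of the pair correlated from -0.32 to 0.39 (median 0.20, 27 animals), and the animal block left the number of members called at 67.

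Named genes were the 12 members furthest toward each organ that carry a symbol (2 toward liver), the 5 with the largest called dose difference, the 5 whose organ fold change moved most with offsets, members of the lists and the genes at the limit. Of genes without a symbol only some were printed, and 1 named gene is not reported here. Other genes named in the text, such as Tsc22d1, Hnf4g, Cbfb, Prr12, Chac2, Zfpm1, Tnrc18 and ENSRNOG00000040195.5, were chosen after their values were seen. Symbols for 1489 identifiers came from the study's supplementary table.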

Additional observations from a re-analysis of the deposited data

Results flagged for a closer look

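In 48 sets of values, that is 3 classes of members in each of 16 groups of 6 or 7 libraries, 3 had a library far from the rest of its group by Dixon's test, where chance gives about 1 in 20. The liver of replicate 4 of group 14 (vehicle) stood apart in both classes longer in kidney: the median of the single-transcript members, relative to kidney, was -0.55 against -0.22 to -0.02 in the other 6 livers, and that of the members with several transcripts was -0.42 against -0.31 to -0.26. In the liver of replicate 2 of group 13 (high dose) the median of the genes longer in liver was 0.37 against 0.27 to 0.30 in the other 6 livers.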

How the results depend on the processing

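The choice of members depended on the level limit: with a mean CPM of 1 or more in both organs 120 of the 200 genes stayed, and with 20 or more 75, since more or fewer genes were then compared. Centring on the library median raised the number longer in liver from 21 to 52. Leaving out each animal in turn kept 193 to 199 members, with 17 to 22 longer in liver. For high against low dose, 5 calls became 30 with no minimum difference (10.9% of all genes compared) and 1 with a difference over 0.5. For high dose against vehicle, 12 became 2 with a difference over 0.5. With no minimum difference they became 46 (34 longer, 12 shorter), against 28.2% of all genes compared (26.2% longer, 1.99% shorter). For low dose against vehicle, 1 became 0 with a difference over 0.5, 2 with the replicate block and 4 with arrayWeights. The 134 F0 effects on length in liver became 1 in the dosed livers alone and 0 in the vehicle livers alone, alternatives with fewer samples that were chosen after seeing the data, while the median single-transcript effect went from 0.10 to 0.07 and 0.15; leaving out each liver in turn gave 129 to 140. The cause of the change in F0 calls and of the other changes was not tested. Library totals in place of TMM, also chosen after seeing the data, raised the organ calls in level from 67 to 118 and turned their balance. Another 71 alternative counts stayed within 1.5 times the reported value. Animal numbers do not pair livers across doses: same-numbered livers of a cohort correlated from -0.77 to 0.80 in residual length, and the replicate block gave 4 calls for high against low dose and 126 for the F0 effect. Blocking by animal left 67 organ calls in level. No member had a vehicle library with a count under 10, and the effect of counting error on a weighted length was not tested.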
